A study of Mus musculus with 15 samples.

Results

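The endoplasmic reticulum folding and stress genes described here are Hspa5, Hsp90b1, Calr, Pdia4, Pdia6, Dnajc3, Xbp1, Atf4, Ddit3 and Herpud1. Every probe whose platform gene symbol is 1 of these 10 was taken, which gave 16 of the 45281 probes of the array and 10 of its 19057 genes. They were followed over 15 bead arrays in 5 groups of 3. All arrays hold RNA of pancreatic ductal adenocarcinoma (PDAC) from the pancreas of mice that are positive for the αSMA-tk transgene, and their genetic background is a mix of C57BL/6 and Balb/c. In such mice a viral thymidine kinase runs from the promoter of the alpha smooth muscle actin gene Acta2, so that ganciclovir (GCV) kills dividing cells that use this promoter, myofibroblasts among them. The early control group had no GCV and the early ablation group had it once pancreatic intraepithelial neoplasia (PanIN), a precursor lesion, was present. The late control group had no GCV, the late ablation group had it at the PDAC stage, and the last group had late ablation and treatment with anti-CTLA4, an antibody against a checkpoint receptor of T cells. All groups carry the transgene, controls included, and age, sex and the tumour-driving alleles are not given in the sources used here. No label says that the arrays stem from different animals, and p-values cover the spread between arrays, which may be technical.

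The endoplasmic reticulum is where secreted and membrane proteins fold, and acinar cells of the pancreas, which make the digestive enzymes, are known for an unusually large one. Unfolded protein there is sensed by IRE1, ATF6 and PERK. IRE1 splices the mRNA of Xbp1, ATF6 is cut to release a transcription factor, and PERK phosphorylates eIF2α, which slows translation while favouring that of Atf4. Spliced XBP1 and ATF6 raise chaperones and foldases, and ATF4 raises amino acid synthesis genes and Ddit3, which encodes CHOP, a factor linked to cell death under lasting stress. The arrays measure total mRNA per probe, so splicing of Xbp1, translation of Atf4 and phosphorylation are outside what they show.

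The best known DNA element of this response is the endoplasmic reticulum stress element (ERSE), which reads CCAAT, then 9 free bases, then CCACG, and the promoters that hold it are printed here to show the letters behind the name. It was first described in promoters of this kind of gene, those of Hspa5, Hsp90b1 and Calr among them, so its presence there is background and no finding. All 10 genes matched RefSeq promoter windows of build GRCm38.p6, which run from 250 bases before to 50 bases after the gene's start, and both strands were searched. The ERSE was found in 5 of the 10 windows. Of all 32851 windows in the RefSeq table, 39 hold it (0.119%). Each line gives the ERSE in capitals with its flanks, 5′ to 3′ in the direction of the gene.
Hspa5, chr2:34772005-34772063, plus strand: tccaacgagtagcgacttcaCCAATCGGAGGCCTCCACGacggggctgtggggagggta
Hsp90b1, chr10:86705513-86705676, minus strand: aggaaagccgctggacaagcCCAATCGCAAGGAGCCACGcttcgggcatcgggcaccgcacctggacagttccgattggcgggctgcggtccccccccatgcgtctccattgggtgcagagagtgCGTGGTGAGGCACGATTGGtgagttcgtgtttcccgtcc
Calr, chr8:84847055-84847113, minus strand: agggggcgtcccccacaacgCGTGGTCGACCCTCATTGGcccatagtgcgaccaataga
Pdia6, chr12:17266471-17266529, plus strand: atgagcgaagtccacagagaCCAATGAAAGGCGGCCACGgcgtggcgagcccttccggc
Dnajc3, chr14:118937807-118937865, plus strand: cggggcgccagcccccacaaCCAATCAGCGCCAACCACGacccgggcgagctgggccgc
The element of Hspa5 began 65 bases before the gene's start, that of Pdia6 98 bases and that of Dnajc3 105 bases before it. Hsp90b1 held 2 elements, beginning 212 and 107 bases before the start, and the nearer one reads as an ERSE on the opposite strand, as does that of Calr, 162 bases before the start.

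Herpud1, the gene in which ERSE-II was first described, held 2 other motifs of the stress response. ERSE-II, which reads ATTGG, then 1 free base, then CCACG, occurred in 12 of the 32851 windows (0.0365%), and the ATF4 site TTGCATCA, a C/EBP-ATF response element, in 0.895% of them. In the line below both are in capitals, the ATF4 site first, beginning 112 bases before the gene's start, and ERSE-II 52 bases before it.
Herpud1, chr8:94386297-94386407, plus strand: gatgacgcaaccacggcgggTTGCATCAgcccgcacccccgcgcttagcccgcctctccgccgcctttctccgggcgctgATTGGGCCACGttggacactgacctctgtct
The XBP1 site TGACGTGG, in 0.676% of windows, was in none of the 10, and none of the motifs was in the windows of Pdia4, Xbp1, Atf4 or Ddit3. None of the matched motifs overlapped another. Only exact matches in these windows were counted, so variant forms of a motif were not looked for. A match is a run of letters and was not tested for binding.

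On each array 38.5% to 43.5% of probes were detected, meaning a detection p-value under 0.05 against the array's negative controls, and rank correlations over the 105 pairs of arrays lay between 0.889 and 0.973. Levels are log2 of the background corrected, quantile normalized signal, on 1 scale over all arrays. Acta2 itself was at 12.43, 11.47 and 11.44 in early control, at 10.98, 13.01 and 13.58 in early ablation, at 12.81, 10.34 and 12.32 in late control, at 12.55, 12.22 and 10.56 in late ablation and at 9.66, 11.53 and 11.50 with anti-CTLA4. Neither ablation group was thus clear of its control in the gene whose promoter drives the transgene. The acinar enzyme Cpa1, a carboxypeptidase, was lowest on early ablation array 1 (5.27) and anti-CTLA4 array 1 (6.47), against 9.62 to 12.40 on the other 13 arrays. H2-Ea, an MHC class II gene chosen after its values were seen, was detected only on early control arrays 2 and 3. Whether strain background bears on the levels below was not tested.

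Of the main chaperones and foldases, Hspa5 spread most widely within groups (pooled SD 0.80) and Hsp90b1 least (0.30). Hspa5, which encodes BiP, the chaperone that holds the 3 sensors inactive, was at 6.53, 6.84 and 6.26 in early control, at 4.98, 6.21 and 5.63 in early ablation, at 5.77, 6.78 and 5.26 in late control, at 4.93, 6.91 and 7.50 in late ablation and at 5.98, 4.93 and 5.0 with anti-CTLA4. Late ablation held the highest of the 15 arrays and also 1 of those below detection, which have no order, and early control was the only group that stayed within 1 unit. The Hspa5 probe lay close to background, at raw signals of 103.3 to 276.3, and was not detected on late ablation array 1 or anti-CTLA4 arrays 2 and 3. Differences in Hspa5 are therefore uncertain in size at the low end. In group means Hspa5 ran from 6.55 ± 0.29 (SD, n = 3) in early control through late ablation, late control and early ablation to 5.30 ± 0.59 (SD, n = 3) with anti-CTLA4. Neighbours in that order overlapped.

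Hsp90b1, the endoplasmic reticulum member of the HSP90 chaperone family, moved little, from 11.57 on early ablation array 1 to 12.46 on late ablation array 3. Its group means lay between 11.93 ± 0.31 in early ablation and 12.22 ± 0.30 in late ablation (SD, n = 3). Calr encodes calreticulin, a lectin chaperone of glycoproteins, and was at 9.01, 9.35 and 8.95 in early control, at 8.33, 8.50 and 9.11 in early ablation, at 9.06, 7.76 and 9.24 in late control, at 9.15, 8.60 and 10.02 in late ablation and at 8.77, 9.04 and 8.67 with anti-CTLA4. Both extremes were again late arrays, late control 2 and late ablation 3. Dnajc3, a co-chaperone of BiP that also restrains PERK, ran from 8.27 on anti-CTLA4 array 2 to 9.68 on late ablation array 2, and its groups overlapped.

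The protein disulphide isomerases Pdia4 and Pdia6, which form and rearrange disulphide bonds, were tightest in early control. Pdia4 was at 10.47, 10.39 and 10.32 in early control, at 9.74, 9.78 and 10.43 in early ablation, at 9.07, 10.13 and 10.14 in late control, at 9.21, 10.11 and 10.27 in late ablation and at 9.82, 9.71 and 9.65 with anti-CTLA4. All 3 early control arrays were above every late array, and early ablation array 3 reached the level of early control. Pdia6 was at 7.78, 7.61 and 7.80 in early control, at 6.38, 6.90 and 7.17 in early ablation, at 6.93, 8.07 and 6.87 in late control, at 6.86, 7.72 and 7.0 in late ablation and at 7.98, 7.14 and 7.46 with anti-CTLA4. Early ablation was below early control on every array of this probe, the brighter of 2, while the 3 late groups spread more widely. On the dimmer Pdia6 probe, close to background, early control was at 5.44, 5.67 and 5.14 and early ablation at 5.72, 5.43 and 5.54, so that these groups overlapped.

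**Figure D1:**
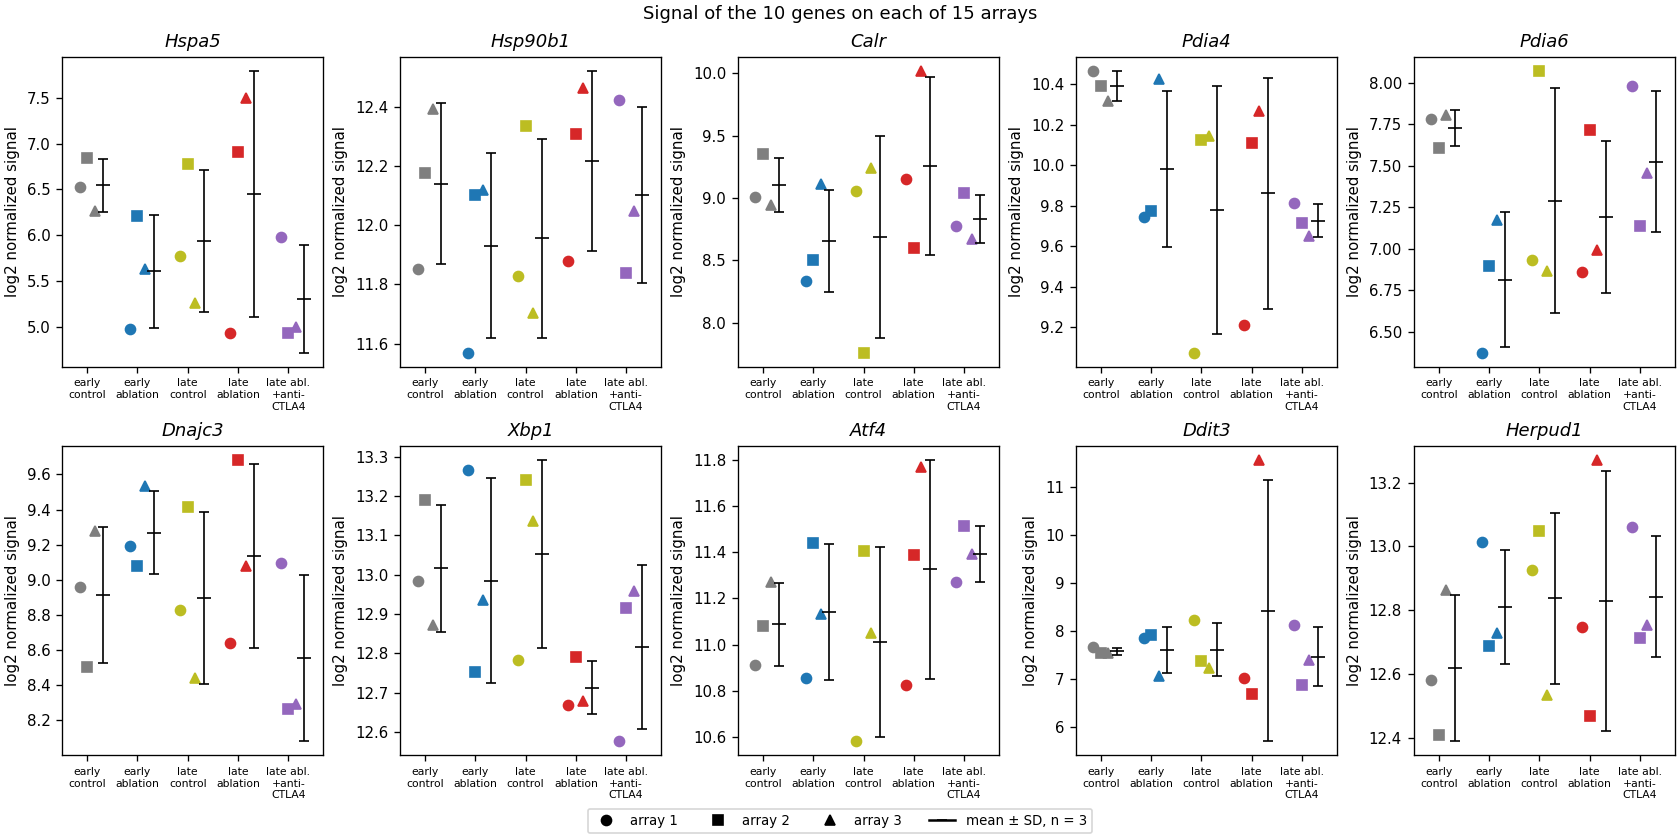
Log2 normalized signal (vertical axes, with a separate range per gene) of the 10 genes on each array of the 5 groups, with circles, squares and triangles for arrays 1, 2 and 3 and bars for the mean ± SD (n = 3). Late ablation array 3 is the highest array for 6 genes, most clearly for Ddit3 at 11.58, and no pair of groups with neighbouring means is free of overlap.

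Among the transcription factors, Xbp1 held a narrow range and Ddit3 did not. Xbp1, the factor of the IRE1 arm, lay between 12.58 and 13.27 on all 15 arrays. Late ablation was its lowest and tightest group, at 12.67, 12.79 and 12.68, against 12.78, 13.24 and 13.14 in late control, so that the highest late ablation array just passed the lowest late control array. The brighter probe of Atf4, the factor of the PERK arm, ran from 10.58 on late control array 1 to 11.77 on late ablation array 3, and its groups overlapped their neighbours in the order of means. The dimmer Atf4 probe was far wider, from 5.83 to 9.94. Herpud1, a membrane protein that organises the degradation of misfolded proteins, ran from 12.41 on early control array 2 to 13.27 on late ablation array 3.

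Ddit3 (chr10:127290793-127296291, GRCm38.p6) stood out on 1 array. It was at 7.67, 7.54 and 7.54 in early control, at 7.86, 7.93 and 7.07 in early ablation, at 8.24, 7.37 and 7.24 in late control, at 7.02, 6.70 and 11.58 in late ablation and at 8.13, 6.89 and 7.41 with anti-CTLA4. The other late ablation arrays were among the 3 lowest of all 15, and array 3 stood 3.33 log2 units above the next array. Among the 15098 features tested this was the largest gap between late ablation array 3 and the highest of the other arrays. The second Ddit3 probe was at 10.96 on that array and between 5.99 and 7.63 on the others.

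Late ablation array 3 was also the highest array for Hspa5, Hsp90b1, Calr, Atf4 and Herpud1, so for 6 of the 10 genes. Of all features, 8.58% were highest on that array and 0.305% were more than 1 log2 unit above every other array, a distance that only Ddit3 reached among the 10. Pdia6, Xbp1, Dnajc3 and Pdia4 were inside the range of the other arrays. Among 21 measured targets of the integrated stress response, the branch that ATF4 serves, 8 were highest there. Chac1, which degrades glutathione, was at 8.62 against at most 6.77 elsewhere, the fifth largest gap of all features. Trib3, a pseudokinase that ATF4 and CHOP induce, was at 9.50 against at most 8.32. Atf3, a stress-induced factor, was at 8.49 against at most 7.38. The other 5 were Ppp1r15a, Asns, Slc3a2, Vldlr and Nupr1. All remaining targets of the list were inside the range of the other arrays. Psat1, Phgdh, Shmt2 and Mthfd2 of serine and one-carbon metabolism were among them.

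Cell type markers on late ablation array 3 were mixed. The mean level of the 28 measured acinar genes of 35 was 9.66, inside the 6.37 to 11.33 of the other arrays, and the 15 measured ductal and lesion genes of 17 were inside it too. The 10 endothelial genes averaged 6.58, just below the 6.65 to 8.15 of the others, 12 measured macrophage genes of 14 averaged 8.94 against 9.15 to 10.52, and 4 measured plasma cell genes of 12 averaged 6.07 against 6.12 to 7.91. Their part in the high stress genes was not tested. In RNA of whole tumours, fewer cells of a type and less RNA per cell cannot be told apart.

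**Figure D2:**
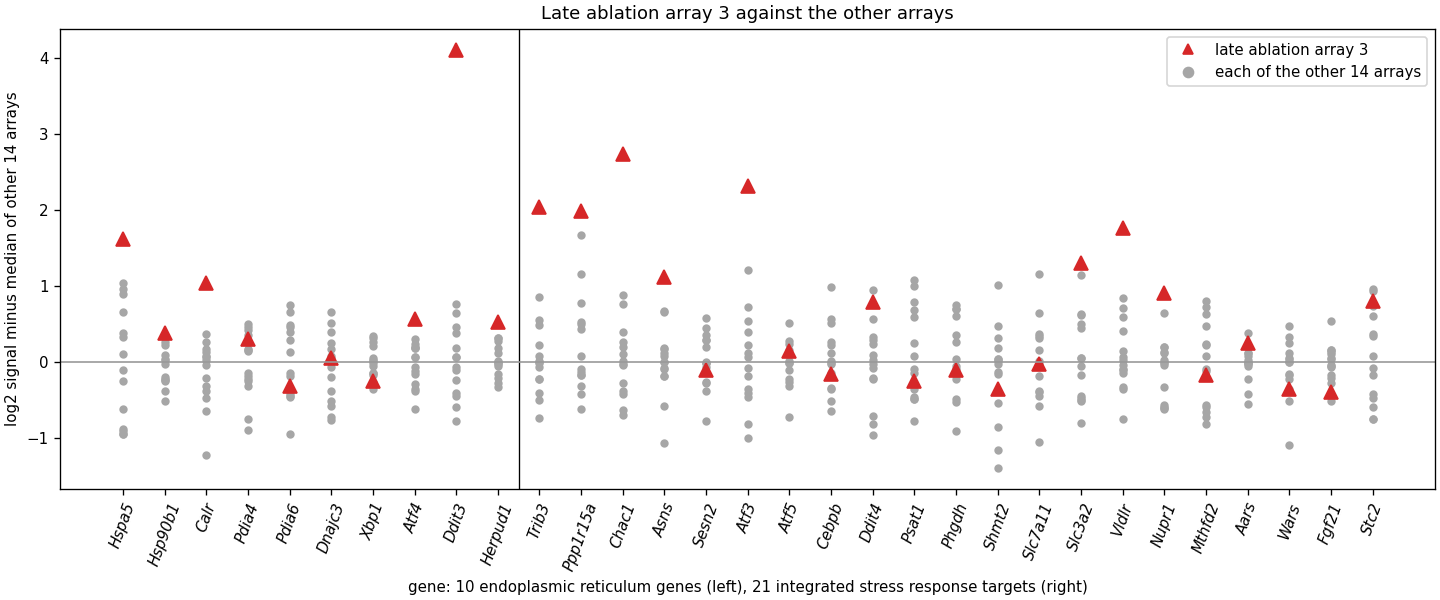
Log2 signal minus the median of the other 14 arrays (vertical axis) for the 10 genes and for 21 targets of the integrated stress response, with red triangles for late ablation array 3 and grey points for each other array. Ddit3 stands 4.10 above that median, followed by Chac1 at 2.73, Atf3 at 2.31 and Trib3 at 2.04. Xbp1, Pdia6 and all targets not highest on late ablation array 3, the serine metabolism genes included, lie among the grey points.

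Genes with more than 1 probe gave a check on these levels. The probes of Ddit3 followed each other (Pearson r = 0.95, Spearman rho = 0.66 over 15 arrays), as did those of Herpud1 (r = 0.83, rho = 0.76). The probes of Atf4 did not (r = -0.24, rho = -0.07): the brighter one, used here, spanned 1.18 log2 units, and the dimmer one 4.12, from 5.83 on anti-CTLA4 array 1 to 9.94 on early ablation array 2. The probes of Pdia6 did not follow each other either (r = -0.05), and the dimmer was detected on 14 arrays. The second probes of Calr and Dnajc3 were detected on 0 arrays. Hspa5, Hsp90b1, Pdia4 and Xbp1 have 1 probe each. Results for Atf4 and Pdia6 thus rest on 1 of 2 probes that disagree.

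**Figure D3:**
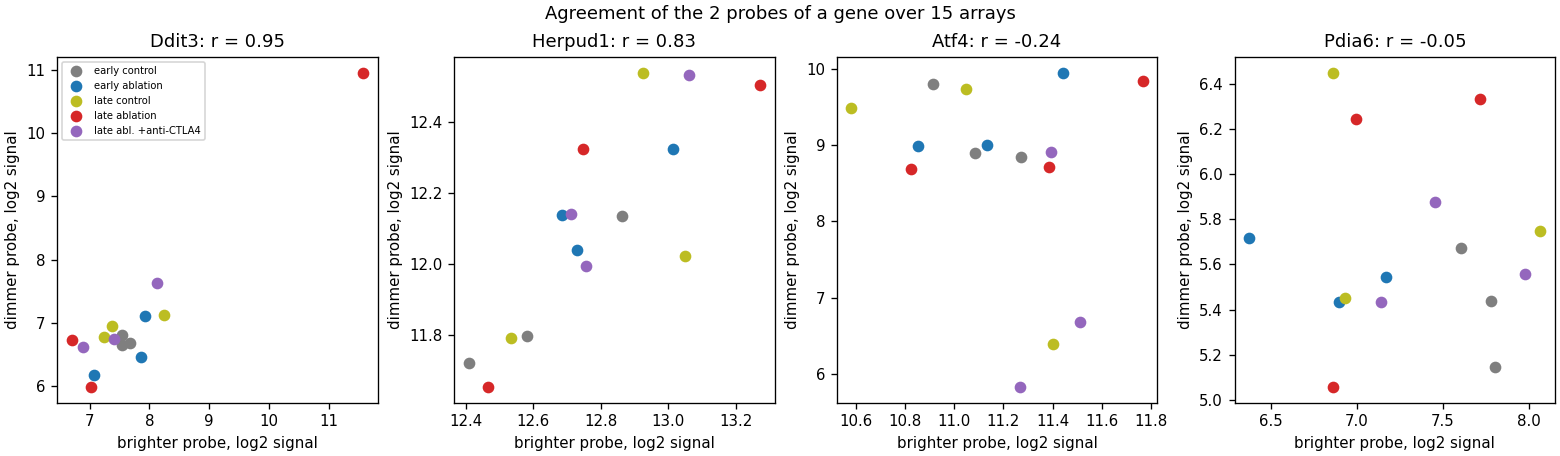
Log2 signal of the dimmer probe (vertical axes) against the brighter probe (horizontal axes) of 4 genes, 1 point per array, coloured by group. The Ddit3 probes share the high value of late ablation array 3 and give r = 0.95, and the Atf4 probes, with 3 arrays far below the rest on the dimmer one, give r = -0.24.

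Early ablation was compared with early control, which asks what GCV at the precursor stage left in the tumours. None of the 10 genes passed limma's moderated test at an adjusted p under 0.05, and neither did any other feature (0% of 15098). Pdia6 was lower by the most relative to its error, with a log2 difference of -0.91 (SE 0.34), or 0.53 times the control level, at an adjusted p of 0.558 in limma. Hspa5 was at -0.94 (SE 0.57, adjusted p = 0.681). Both were lower on 3 of 3 arrays without overlap, which 21.4% of all features also showed in 1 direction or the other, and 1 of the 10 (Pdia6) had an unadjusted p under 0.05, against 8.13% of features. The dimmer Pdia6 probe did not share the lower level. Calr (-0.45), Pdia4 (-0.41), Hsp90b1 (-0.21) and Xbp1 (-0.03) had lower means too, though those of Hsp90b1 and Xbp1 were higher with median scaling, at 0.02 and 0.13. Dnajc3 (0.36), Herpud1 (0.19), Atf4 (0.05) and Ddit3 (0.04) had higher means. The median of the 10 was -0.12 beside -0.01 over all features. With median scaling of the arrays instead of quantile normalization it was 0.08, beside a shift of all features to 0.25, so that the genes stood at -0.17 relative to that shift. Between the same groups, the mean of 15 ductal and lesion genes was 11.98 to 12.21 in early control and 11.01 to 11.94 in early ablation, and that of 12 macrophage genes 9.15 to 9.83 and 10.05 to 10.52. Neither overlapped, and their part in the lower Pdia6 and Hspa5 was not tested.

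Late ablation was compared with late control, the same question at the PDAC stage. Again none of the 10 genes and no other feature passed (0% of 15098), none of the 10 had an unadjusted p under 0.05 (2.24% of features had), and none had groups free of overlap (4.52% of features had). The log2 difference of Ddit3 was 0.82 (SE 0.91), all of it from array 3, without which it was -0.76. Calr was at 0.57 (SE 0.39), and at 0.11 without late control array 2. Hspa5 was at 0.51 (SE 0.57) and Atf4 at 0.31 (SE 0.26), and these were at -0.015 and 0.094 without late ablation array 3. Xbp1 was at -0.34 (SE 0.20), the most relative to its error, with an adjusted p of 1.00 in limma as for the others. The median of the 10 genes was 0.25 beside -0.02 over all features, and -0.0071 without late ablation array 3. Late ablation and late control arrays numbered 1 and 2 deviated together (correlations 0.58 and 0.39), and those numbered 3 hardly did (0.14). A fit on the 6 late arrays with the replicate number as a block again called none of the 10 genes. In it 1 of the 10, Calr, had an unadjusted p under 0.05 (adjusted p = 0.960 in limma), as had 4.15% of features. Calr was higher and Xbp1 lower with ablation in 3 of 3 pairs of the same number. The share of all features with 1 direction in 3 of 3 pairs was not counted.

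The difference between these ablation effects, late minus early, was tested as an interaction. No feature passed, the 10 genes included (0% of 15098), and none of the 10 had an unadjusted p under 0.05, against 4.43% of features. The interaction was 1.45 log2 units for Hspa5 (SE 0.81), 1.02 for Calr (SE 0.56) and 0.82 for Pdia6 (SE 0.48), each with an adjusted p of 0.999 in limma. Without late ablation array 3 that of Hspa5 was 0.93, with no background correction it was 0.65, and without late control array 2 that of Calr was 0.56. The median over the 10 was 0.48, and 0.16 without late ablation array 3. With median scaling the median was 0.33, while that of all features moved from -0.01 to -0.23. The means of Hspa5 and Calr were lower with ablation at the early stage and higher at the late stage, except that the late one of Hspa5 was not higher without late ablation array 3, and neither interaction exceeded the spread of the arrays.

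Late control was compared with early control, both without GCV. As before, no feature passed (0% of 15098). Pdia4 was lower on 3 of 3 arrays without overlap, with a log2 difference of -0.61 (SE 0.32) at an adjusted p of 0.546 in limma, and -0.26 without late control array 1. Of all features 18.5% were free of overlap, and 9.97% had an unadjusted p under 0.05, which none of the 10 had. Hspa5 was at -0.61 (SE 0.57), Pdia6 at -0.44 (SE 0.34) and Calr at -0.42 (SE 0.39), the last at 0.04 without late control array 2. Early control enters this comparison and the early ablation one, so the lower Hspa5, Pdia4 and Pdia6 in both rest on the same 3 arrays. The 15 ductal and lesion genes averaged 11.35 to 11.92 in late control, below the 11.98 to 12.21 of early control, and their part was not tested.

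Anti-CTLA4 added to late ablation was compared with late ablation alone. The anti-CTLA4 arrays come from a separate table, so table and treatment cannot be told apart. No gene of the 10 passed, and 0.00662% of features did. Hspa5 had a log2 difference of -1.14 (SE 0.57, adjusted p = 0.661 in limma), which was -1.89 without late ablation array 1 and -0.62 without late ablation array 3. Dnajc3 was at -0.58 (SE 0.33), Pdia6 at 0.33 (SE 0.34) and Ddit3 at -0.96 (SE 0.91), which turned to 0.61 without late ablation array 3. The brighter Atf4 probe was at 0.07 (SE 0.26). The dimmer one was at 5.83, 6.69 and 8.91 with anti-CTLA4 and at 8.69, 8.71 and 9.84 in late ablation. No gene of the 10 had an unadjusted p under 0.05 (7.76% of features) or groups free of overlap (10.3% of features). The median of the 10 was -0.13, beside -0.0048 over all features, and 0.08 without late ablation array 3. With median scaling it was -0.28. The 4 measured plasma cell genes of 12 averaged 6.42 to 6.59 with anti-CTLA4 and 6.07 to 6.31 in late ablation, without overlap. The other cell type lists overlapped. Of the 4 genes, only Mzb1 and Pou2af1 were free of overlap, both at low levels. Mzb1 was at 4.76 to 5.20 with anti-CTLA4 and at 4.48 to 4.57 in late ablation. Pou2af1 was at 5.15 to 5.83 and at 4.86 to 5.07. Sdc1, the brightest, was at 9.34 to 10.44 with anti-CTLA4, a range that held all late ablation arrays. The part of the plasma cell genes in these differences was not tested.

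**Figure D4:**
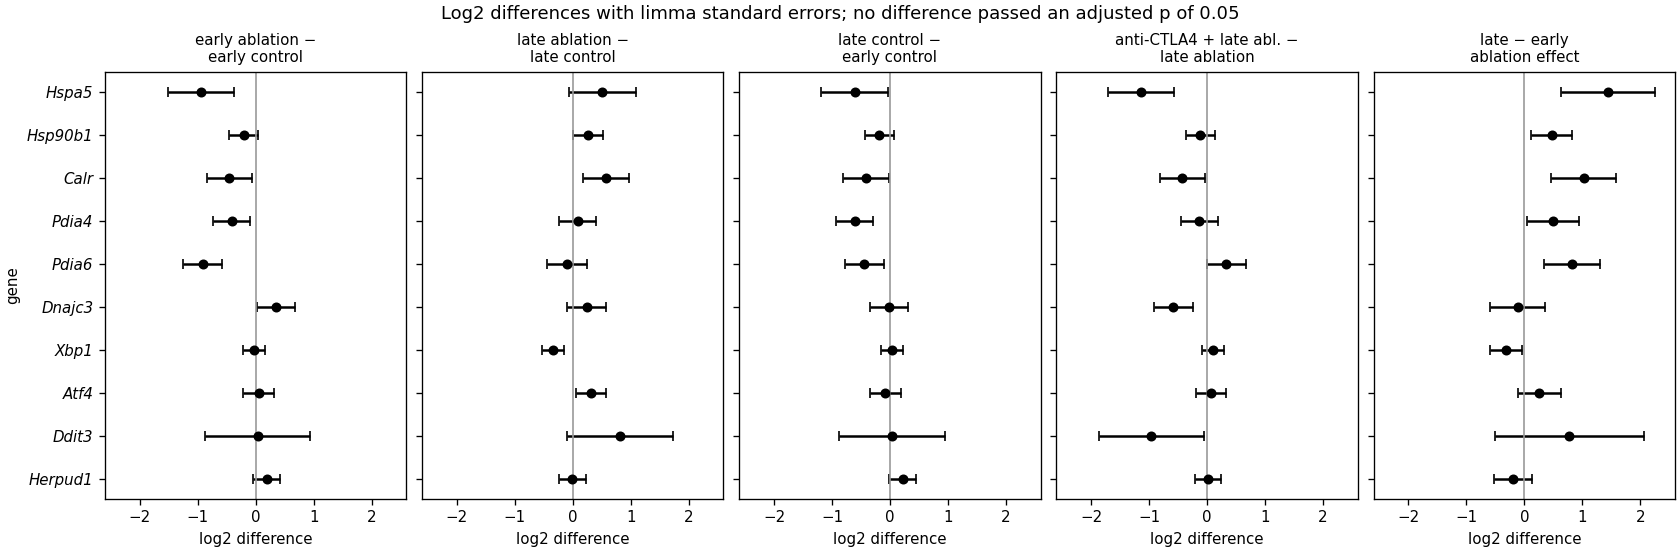
Log2 differences (horizontal axes) of the 10 genes in the 5 comparisons, with limma standard errors as bars. None passed an adjusted p of 0.05, and the bars of Hspa5, Calr and Ddit3 are long beside those of Xbp1 and Herpud1.

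Cpa1 was taken as the acinar enzyme level of each array, and the relation of the 10 genes to it was tested over the 15 arrays. A linear fit of each of 15097 features on Cpa1 called 30 (0.199%), all of positive slope, of which 17 were among the 27 other measured acinar genes, Try5 with the steepest slope of 1.02 (SE 0.08, adjusted p = 1.8e-06 in limma). None of the 10 genes was called or had an unadjusted p under 0.05, which 5.73% of features had. Within groups, with group means as a term, 0.238% of features were called and again none of the 10. The acinar enzymes thus rose with Cpa1 over the arrays, and the 10 genes did not pass the same test.

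The 10 correlations ran from r = -0.49 for Herpud1 to 0.29 for Calr. Herpud1 had a permutation p of 0.064 for Pearson's r and Spearman rho = -0.44 with a permutation p of 0.099, two-sided, from 100000 resamples. The other Pearson p-values ran from 0.289 for Calr to 0.912 for Pdia4. Within groups the range was -0.51 to 0.26, and over the 12 arrays of the first table -0.45 to 0.34. Calr, the highest, had Spearman rho = 0.36 with a permutation p of 0.185.

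Early ablation array 1 and anti-CTLA4 array 1 lay far from the others in Cpa1. They stood at opposite ends for Hsp90b1, Pdia6 and Xbp1, and for the other genes they did not. Herpud1 was high on both, at 13.01 and 13.06. Hsp90b1 and Pdia6 were at their lowest of all arrays on early ablation array 1, at 11.57 and 6.38, and second highest on anti-CTLA4 array 1, at 12.42 and 7.98. Xbp1 was at its highest on the first, 13.27, and at its lowest on the second, 12.58. Without both arrays (n = 13) the correlations ran from -0.59 for Atf4 to 0.05 for Calr, and 1 of 10 was positive instead of 4. That of Atf4 holds for its brighter probe, which the dimmer one did not follow (r = -0.24 between the probes). Those of Hspa5, Hsp90b1 and Pdia6 went from 0.10, 0.05 and 0.04 to -0.32, -0.31 and -0.35. Early ablation array 1 alone decided these signs: without it they were -0.18, -0.46 and -0.50. Without anti-CTLA4 array 1 alone, Hsp90b1 was at 0.28 and Pdia6 at 0.30. Over all 15 arrays Spearman's rho was already negative for these 3 genes, at -0.05, -0.175 and -0.168, and positive for 1 of the 10.

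**Figure D5:**
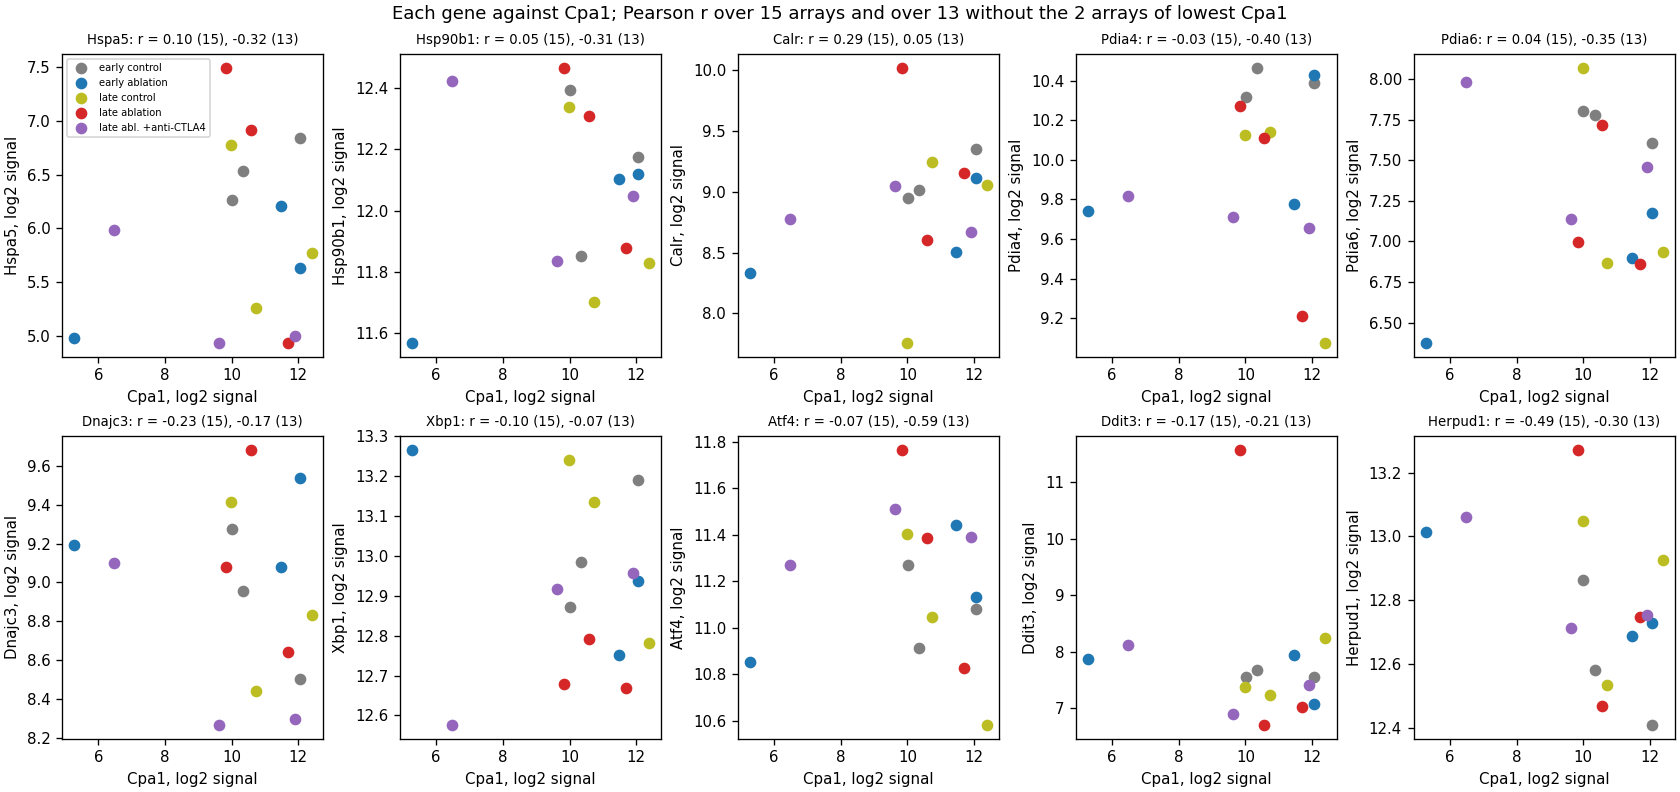
Log2 signal of each gene (vertical axes) against Cpa1 (horizontal axes), 1 point per array, coloured by group, with Pearson r over 15 and over 13 arrays in the titles. The 2 points on the far left are early ablation array 1 and anti-CTLA4 array 1, and most correlations are lower without them, Atf4 (brighter probe) going from -0.07 to -0.59.

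Other genes of the secretory route, in 4 lists, included some that followed Cpa1 more closely. Of 20 measured chaperones and foldases of 28, 16 had positive correlations with Cpa1 and the median r was 0.26, but without the 2 arrays of lowest Cpa1 it was 9 of 20 and -0.15. Pdia2, a disulphide isomerase made in the pancreas, had a slope of 0.37 per log2 unit of Cpa1 (SE 0.08, adjusted p = 0.097 in limma). Fkbp11, a prolyl isomerase of secretory cells, had a slope of 0.21 (SE 0.07, adjusted p = 0.644). Erp27, a disulphide isomerase relative outside the lists and chosen after its values were seen, was among the 30 features called, with a slope of 0.38 (SE 0.07, adjusted p = 0.016 in limma). None of the 20 was called, nor any of 12 sensors and factors (median r = 0.18), 32 degradation and translocation genes (0.21) or 21 integrated stress targets (0.08). Without the 2 arrays of lowest Cpa1 these medians were -0.07, 0.04 and -0.01. The acinar genes had a median r of 0.83, and of 0.66 without those arrays.

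The 10 genes did not move as 1 group. Over 15 arrays, 31 of their 45 pairs correlated positively, with a median Pearson r of 0.22, which was 0.01 without late ablation array 3. The closest pair was Hspa5 and Hsp90b1 (r = 0.72, rho = 0.69), then Hsp90b1 and Pdia6 (r = 0.67, rho = 0.66) and Ddit3 and Herpud1 (r = 0.67, rho = 0.51). The most opposed was Hsp90b1 and Xbp1 (r = -0.40, rho = -0.39). The 10 pairs in which both genes hold the ERSE printed above had a median r of 0.36, from -0.34 to 0.72. The other 35 had a median of 0.15. Without late ablation array 3 these medians were 0.38 and 0.00037. The pair of Calr and Dnajc3 was the lowest of the first kind. Pairs of the second kind reached 0.67, among them Hsp90b1 with Atf4 (0.65) and Hspa5 with Pdia4 (0.58). These correlations share arrays and normalization, and they are given as description with no test.

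Outside the 10, the features most like Hspa5 over the 15 arrays were Laptm4b (r = 0.92), Map2k1 (0.90), Cdh17 (0.90), Setd5 (0.88) and Creld2 (0.86), the last a secreted protein known as a target of the unfolded protein response. Without late ablation array 3 these were 0.81 to 0.92. Those most like Ddit3 were Edn2 (0.90), Fam71f2 (0.89), Kdm4b (0.89), Diras2 (0.88) and Sstr2 (0.87). Without that array they dropped to between 0.40 and 0.72, so the likeness to Ddit3 was largely that of 1 tumour.

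Of the 85 genes measured in the 4 wider lists, none passed in any of the 5 comparisons. In early ablation, all 12 sensors and factors had means below early control (median -0.30), as did 17 of 20 chaperones and foldases (-0.24), 23 of 32 degradation and translocation genes (-0.25) and 12 of 21 integrated stress targets (-0.19). With median scaling, which moved the median of all features to 0.25, lower means were found for 6 of 12, 9 of 20, 12 of 32 and 6 of 21. Relative to the median of all features, the list medians were then at -0.22, -0.23, -0.20 and -0.14. With quantile normalization, late control had lower means than early control for 10 of 12, 15 of 20, 22 of 32 and 11 of 21. Those medians were -0.33, -0.29, -0.19 and -0.01, and both comparisons rest on the same 3 early control arrays. Among the named genes, Eif2ak3, which encodes PERK, was at -0.53 in early ablation (SE 0.25, adjusted p = 0.617) and at 0.55 in late ablation (SE 0.25, adjusted p = 1.00). Its interaction was 1.08 (SE 0.35, adjusted p = 0.999 in limma). Kdelr1, the receptor that returns BiP and other resident proteins, was at -0.79 in early ablation (SE 0.27, adjusted p = 0.544), and Sec62, a translocation factor, at -0.58 (SE 0.19, adjusted p = 0.544). Levels were low, at 4.58 to 5.80 for Eif2ak3, 4.46 to 5.76 for Kdelr1 and 5.13 to 6.07 for Sec62. Hspa5 was not detected at 4.93 on late ablation array 1 or at 4.93 and 5.0 on anti-CTLA4 arrays 2 and 3. It was detected at 4.98 on early ablation array 1, so those levels are no common limit of detection. Ddit4, a stress-induced inhibitor of mTORC1, was higher in late than in early control by 1.18 (SE 0.32, adjusted p = 0.292 in limma). Asns, asparagine synthetase and a target of ATF4, was at 0.75 in late ablation (SE 0.35, adjusted p = 1.00).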

How the data were processed

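RNA extracted with Trizol was labelled as biotinylated cRNA and measured on Illumina bead arrays, per the labels. The deposited tables hold, per probe and array, an intensity that is neither background corrected nor normalized, and beside it the authors' detection p-value against negative controls. GenomeStudio is named in the submitters' processing notes, with no version. The authors' value table is a straight-line function of these intensities, and how its slope and offset were chosen is not given in the sources used here.

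Background was removed from the intensities of all 15 arrays by normexp, using the detection p-values and an offset of 16, and the result was quantile normalized together and put on the log2 scale (neqc, limma 3.58.1 in R 4.3.3). The brightest probe stood for a gene, and features needed a detection p under 0.05 on at least 3 arrays, which left 15098. All 10 genes passed. A single gene symbol is given for 34885 probes, more than 1 for 18, and 10378 have no symbol. One limma fit (lmFit, eBayes, two-sided, Benjamini-Hochberg over all features, adjusted p under 0.05) with 5 group means gave all comparisons, and a separate fit gave slopes on Cpa1 over 15097 features. Cpa1 correlations had permutation tests (SciPy 1.17.1, 10 relations). Signal over background and 3 arrays per group limit the precision. Late ablation and late control arrays numbered 1 and 2 deviated together (correlations 0.58 and 0.39), and those numbered 3 hardly did (0.14). All late arrays of the same number were still taken as pairs in the replicate block fit. The pairing comes from the numbers in the labels and from this check on the same data. Correlations for the other comparisons ran from -0.28 to 0.15, a range that holds the 0.14, and these were not taken as paired. The pipeline was tested on simulated data.

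The 10 genes, the wider lists and the cell type markers were chosen with earlier results of these data known. Named besides the 10 genes are, per wider list and comparison, genes among the 2 with the smallest p per direction, the 5 features most like Hspa5 and like Ddit3, and Cpa1. The targets highest on late ablation array 3, Acta2 and the acinar gene Try5 were named outside that rule, after their values were seen. Alternatives were median scaling, no background correction, offset 50, no detection filter, every probe, 12 arrays only, array weights, replicate block, the authors' values, leaving out each array, the acinar list in place of Cpa1, and, added after seeing the data, the 6 late arrays alone. Protein sequences were not used here.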

Additional observations from a re-analysis of the deposited data

How the results depend on the processing

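None of the 10 genes passed the threshold in any comparison or in the Cpa1 fit under any alternative, the replicate block included. Without 1 array, the median difference of the 10 genes ran from -0.21 to -0.09 in early ablation, from -0.0071 (without late ablation array 3) to 0.46 in late ablation, from -0.28 to -0.05 between controls, from -0.37 (without late ablation array 1) to 0.078 with anti-CTLA4 and from 0.16 to 0.73 for the interaction. In the paired fit of the 6 late arrays with the replicate block, no feature passed in limma and 627 had an unadjusted p under 0.05, Calr among them at 0.57 (adjusted p = 0.960), so the block changed no call at an adjusted p. Single differences, none called, changed sign in 3 of 90 values for early ablation, 4 of 110 for late ablation, 3 of 90 between controls, 4 of 80 with anti-CTLA4 and 2 of 90 for the interaction under other settings, and Cpa1 correlations in 13 of 120. Array weights called 67 features in early ablation, 285 between controls and 18 with anti-CTLA4, against 0, 0 and 1, and the cause was not tested. Median scaling called 6 in early ablation, and the anti-CTLA4 count was 2 with median scaling or the authors' values, 5 with every probe and 7 with no detection filter. The Cpa1 fit called 74 features without early ablation array 1 and 8 without the 2 arrays of lowest Cpa1. Leaving out 1 array gave up to 22 calls in early ablation, 7 for the interaction and 9 with anti-CTLA4. Hspa5 lies near background, and its early difference of -0.94 was -0.37 with no background correction, which also gave 0.28 in late ablation, -0.24 between controls and -0.51 with anti-CTLA4, whereas array weights gave 1.17, -0.97 and -1.70 for these 3.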
